A study of Mus musculus with 12 samples.

Results

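The genes described here are those with a named probe that gave a value on at most 6 of the 12 heart arrays of the study. A probe is a short DNA strand on the array that captures the transcript of a gene, and a named probe is one to which the platform annotation gives a single gene symbol. The rule found 175 probes of 171 genes among 21615 named probes of 18069 genes, which is 0.81% of the named probes. Membership was chosen on the values themselves, by how many arrays hold one, so the number of values and the high levels below describe the members and were not tested. Of the 175 probes, 112 had a median of the present values above 10 on the log2 scale and are called bright, 2 had a median at or below 10, and 61 had no value on any array. All 175 were found by gene identifier in RefSeq, 174 of them as protein-coding genes.

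The hearts came from Balb/c mice, an inbred laboratory strain, dosed by gavage with DMA, a compound whose abbreviation the labels leave unexpanded, at 30 mg/kg, or with DMSO, the vehicle. Collection followed at 24 h or 48 h, for 4 groups of 3 arrays: DMSO 24 h, DMA 24 h, DMSO 48 h and DMA 48 h. Every group is of the same strain, and the labels name no age, genotype or second agent. RNA of the hearts of a group was pooled according to the design text, while the labels call the 3 samples of a group biological replicates, so any p-value measures the spread between these samples, which may be partly technical.

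Heart muscle contracts without rest, and its cells are filled with sarcomeres, the contractile units, and with mitochondria that burn fatty acids to supply ATP. Transcripts of contractile proteins, of the respiratory chain and of the ATP synthase are therefore among the most plentiful in this tissue, and transcripts of ribosomal proteins are plentiful in nearly every tissue. On a 1-colour array the log2 intensity of a probe rises with the amount of its transcript up to the top of the scanner's range. It also depends on the probe, so levels of different probes are not set against each other as transcript amounts here.

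One array stood apart and bears on every member with a value. The correlation of an array with the per-probe median of its time, itself left out, was 0.742 for DMA 24 h replicate 3 and between 0.927 and 0.963 for every one of the remaining 11. The lowest of the 48 h arrays was DMA 48 h replicate 3, at 0.940. Between 322 and 3997 of 36227 probes had no value on an array, with the fewest on DMA 24 h replicate 3 and the most on DMSO 24 h replicate 1. Array medians were near 6.04 in each 24 h array and near 6.36 in each 48 h array, so levels set across the times carry a difference in scaling. The highest value of an array lay between 14.53 and 15.12.

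All 114 members with any value had one on DMA 24 h replicate 3, and 42 of them had it there alone. DMSO 24 h replicate 3 carried 42 members, DMA 48 h replicates 1 and 3 carried 38 each, and DMSO 24 h replicate 2 carried 11. Few were present on the other arrays: 7 on DMA 48 h replicate 2, 7 on DMSO 48 h replicate 3, 5 on DMA 24 h replicate 2, 2 on DMA 24 h replicate 1 and 1 on DMSO 24 h replicate 1. DMSO 48 h replicates 1 and 2 carried 0 members. At 48 h 53 members had a value on a DMA array and on no DMSO array, 7 had values in both groups, 0 only in DMSO, and 54 had none at that time. The counts per array at 48 h touched at 7 between the groups, and the 24 h groups overlapped (1 to 42 in DMSO, 2 to 114 in DMA). In each group the arrays differed widely, and with 3 arrays a group no test of these counts was made. Gaps at 48 h also differed over all probes: DMSO replicates 1, 2 and 3 lacked 2498, 1509 and 768 values. DMA replicates 1, 2 and 3 lacked 765, 675 and 954. How many of all probes had a 48 h value in DMA only was not counted, so the 53 are not shown to be particular to the members.

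**Figure D1:**
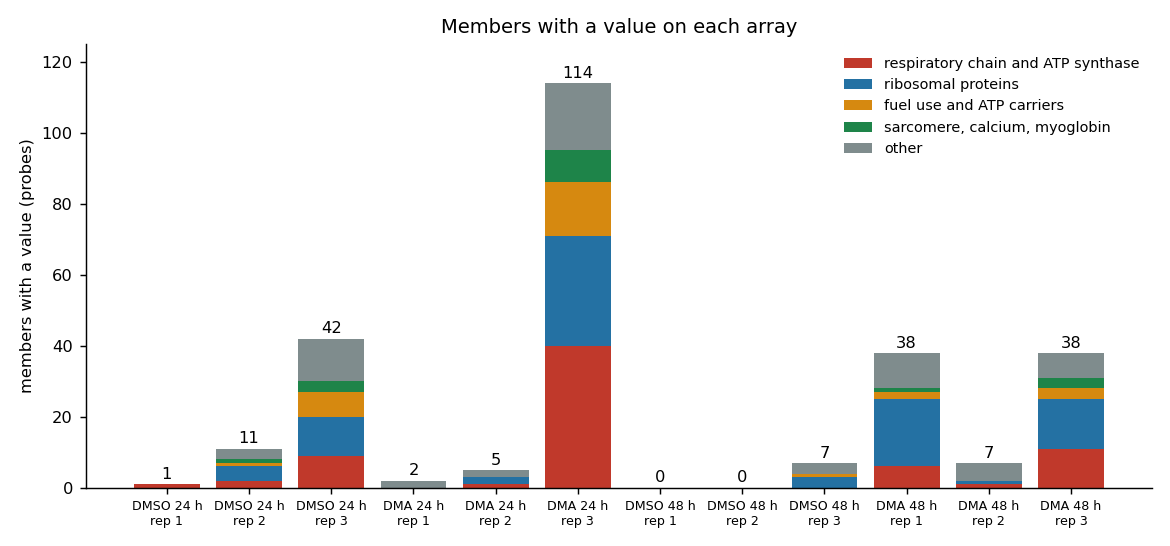
Number of the 114 members with a value on each of the 12 arrays (vertical axis, probes), stacked by role, with the total above each bar. DMA 24 h replicate 3 holds all 114, DMSO 24 h replicate 3 holds 42, DMA 48 h replicates 1 and 3 hold 38 each, and DMSO 48 h replicates 1 and 2 hold 0.

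The gaps followed a few patterns. After the 42 members valued on DMA 24 h replicate 3 alone, 13 had DMA 48 h replicate 3 as their only other array, 11 had DMSO 24 h replicate 3 and 10 had DMA 48 h replicate 1. Another 6 shared DMSO 24 h replicate 3 and DMA 48 h replicate 3, and 5 shared DMSO 24 h replicate 3 and DMA 48 h replicate 1. By number of values, 42 members had 1, 34 had 2, 16 had 3, 9 had 4, 7 had 5 and 6 had 6. Values on 3 arrays of 1 group existed for Ifitm3, Romo1 and Rps26, all in DMA 48 h.

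Outside DMA 24 h replicate 3 the members had 151 values, of which 135 lay above 14. On DMA 48 h replicate 1 all 38 lay between 14.27 and 14.91, where the highest value of the array was 14.91. On DMSO 24 h replicate 3 they ran from 11.7 to 14.79 with a median of 14.68 and 36 of 42 above 14. DMA 48 h replicate 3 held 31 of 38 above 14, with a range of 11.45 to 14.86. The 16 values at 14 or below belonged to 10 genes, among them Aox4, Ech1, which encodes an enoyl-CoA isomerase of fatty acid breakdown, and Atp5pb, a subunit of the ATP synthase stalk. Aox4, which encodes an aldehyde oxidase, was the only member below 13 on an array other than DMA 24 h replicate 3, at 11.7, 12.18 and 11.45.

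On DMA 24 h replicate 3 the same probes were spread far wider, from 9.03 to 15.12 with a median of 13.1. There 11 members lay above 14, 49 between 13 and 14, 28 between 11 and 13 and 26 at 11 or below. The 42 members with a value on that array alone covered 9.82 to 15.12, and 8 of them lay above 14. Without this array the count of bright members fell from 112 to 72, and those 72 had medians of 11.7 to 14.86 with a middle value of 14.66. Each of the 72 probes that another array measured was thus bright without it. Of the 42 measured on it alone 40 were bright, by that array only, and 2 lay at or below 10.

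**Figure D2:**
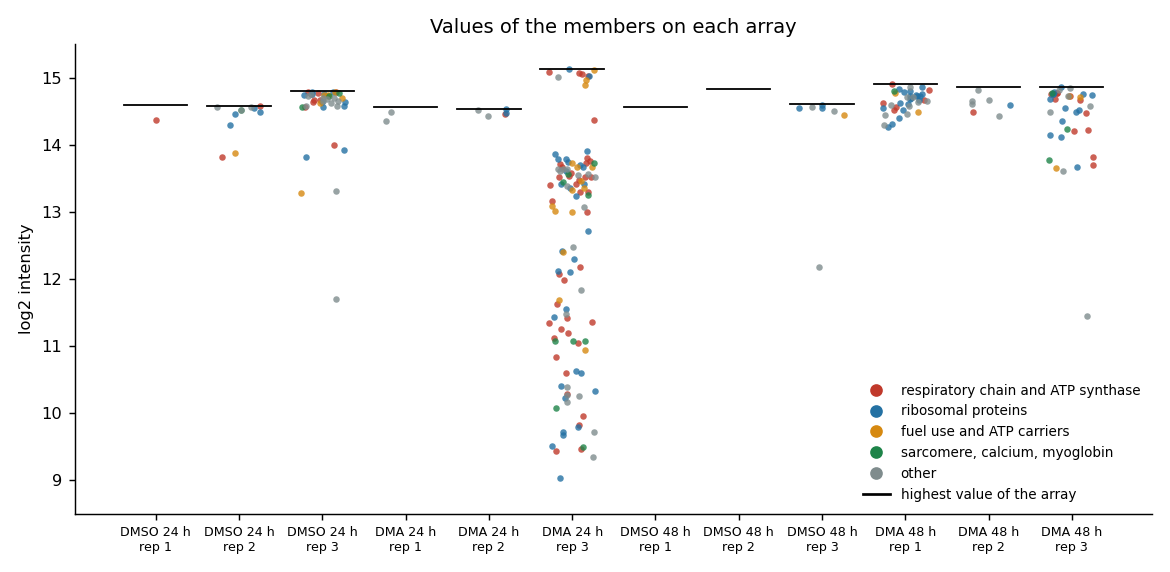
Log2 intensity of each member (points, coloured by role) on each of the 12 arrays, with a line at the highest value of the array. On 9 arrays the members lie near that line and on 2 they have no value, apart from Aox4 and some values between 13 and 14, whereas on DMA 24 h replicate 3 they run from 9.03 to 15.12.

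The respiratory chain and ATP synthase gave the largest role. Of 85 probes of nuclear genes in this list 42 were members, or 49.4%, against 0.81% of all named probes. 38 of the 42 were bright, 2 lay at or below 10 and 2, Uqcrb and Uqcrh, subunits of complex III, had no value. Of the 40 with a value, 23 were measured on DMA 24 h replicate 3 alone, among them Ndufa3 (15.08), Cox8b (15.07), Cox6c (15.05) and Atp5k (15.02), subunits of complex I, of cytochrome c oxidase and of the ATP synthase. Several were seen on more arrays. Ndufs7, an iron-sulphur subunit of complex I, read 14.57 on DMSO 24 h replicate 2, 14.67 on DMSO 24 h replicate 3, 13.67 on DMA 24 h replicate 3, 14.91 on DMA 48 h replicate 1 and 14.68 on DMA 48 h replicate 3. It was lower on DMA 24 h replicate 3 than on the other 4 arrays with a value, which lay between 14.57 and 14.91.

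Atp5l, subunit g of the ATP synthase, was measured on 5 arrays at 14.36 (DMSO 24 h replicate 1), 14.46 (DMA 24 h replicate 2), 9.44 (DMA 24 h replicate 3), 14.56 (DMA 48 h replicate 1) and 14.48 (DMA 48 h replicate 2). It was the only member valued on DMSO 24 h replicate 1. Ndufa7 read 14.66 on DMSO 24 h replicate 3, 13.72 on DMA 24 h replicate 3, 14.62 on DMA 48 h replicate 1 and 14.77 on DMA 48 h replicate 3. Atp5pb read 13.81 and 13.99 on DMSO 24 h replicates 2 and 3, 12.18 on DMA 24 h replicate 3 and 13.69 on DMA 48 h replicate 3. Each of these was lowest on DMA 24 h replicate 3. Uqcrh had a further member probe, at 13.52 on DMA 24 h replicate 3 and 14.81 on DMA 48 h replicate 1, so its 2 probes differed in whether any array measured them.

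Ribosomal proteins of the cytosol came next, with 32 of 77 probes (41.6%), of which 31 were bright and 1, Rpl41, had no value. Of the 31 with a value, 19 were on DMA 48 h replicate 1, 14 on DMA 48 h replicate 3, 11 on DMSO 24 h replicate 3 and 3 on any DMSO 48 h array. Rps3a1, of the small subunit, read 14.49 and 13.92 on DMSO 24 h replicates 2 and 3, 10.33 on DMA 24 h replicate 3, 14.73 on DMA 48 h replicate 1, 14.59 on DMSO 48 h replicate 3 and 14.76 on DMA 48 h replicate 3. Rps26 read 14.47 on DMA 24 h replicate 2, 14.79 on DMSO 24 h replicate 3, 9.51 on DMA 24 h replicate 3 and 14.39, 14.59 and 14.48 on the 3 DMA 48 h arrays. In both genes every array but DMA 24 h replicate 3 lay close to 14 or above it.

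Rps10 read 14.45 and 14.57 on DMSO 24 h replicates 2 and 3, 13.42 on DMA 24 h replicate 3, 14.27 and 14.12 on DMA 48 h replicates 1 and 3 and 14.54 on DMSO 48 h replicate 3. Rps14 read 14.75 on DMSO 24 h replicate 3, 13.9 on DMA 24 h replicate 3 and 14.72 and 14.68 on DMA 48 h replicates 1 and 3. Rpl10a had 14.64, 10.22, 14.72 and 14.79 on the same 4 arrays. The distance of DMA 24 h replicate 3 below the others therefore varied among ribosomal genes, for example under 1 log2 unit in Rps14 and over 4 in Rpl10a. Over the 11 ribosomal members with both values, DMA 24 h replicate 3 minus DMSO 24 h replicate 3 ran from -5.75 to -0.85. Rpl39 was measured on DMA arrays only, at 9.79 on DMA 24 h replicate 3 and 14.75 and 14.74 on DMA 48 h replicates 1 and 3. Rpl22 had a pair of member probes. Ribosomal protein genes have many near-identical processed copies in the genome, and the sources used here do not say which copies a probe can capture.

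Contractile genes of the sarcomere counted 9 members among 57 probes (15.8%). Mybpc3, cardiac myosin binding protein C, read 14.52 and 14.56 on DMSO 24 h replicates 2 and 3 and 11.08 on DMA 24 h replicate 3. Csrp3, the Z-disc protein MLP, read 14.72 on DMSO 24 h replicate 3, 11.07 on DMA 24 h replicate 3 and 14.23 on DMA 48 h replicate 3. Myoz2, the Z-disc protein calsarcin-1, read 14.77 on DMSO 24 h replicate 3 and 11.08 on DMA 24 h replicate 3. In these 3 genes DMA 24 h replicate 3 minus DMSO 24 h replicate 3 was -3.69 to -3.48. Cardiac troponin T, Tnnt2, was measured at 9.49 on DMA 24 h replicate 3 and 14.77 on DMA 48 h replicate 3. The ventricular light chain Myl3 had 1 probe at 10.07 on DMA 24 h replicate 3 and 14.8 and 13.77 on DMA 48 h replicates 1 and 3, and another with no value. Tnni3 (13.56) and Myl2 (13.44) were seen on DMA 24 h replicate 3 alone, and Actc1, cardiac alpha-actin, on no array.

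Calcium handling had 3 members among 38 probes (7.89%): Pln, phospholamban, which restrains the calcium pump of the sarcoplasmic reticulum, at 13.73 on DMA 24 h replicate 3 alone, and the pump itself, Atp2a2, and the release channel Ryr2, with no value. Myoglobin, Mb, which stores oxygen in muscle, had 1 probe at 13.25 on DMA 24 h replicate 3 alone and another with no value. The defining markers of heart muscle cells were mostly members: of 10 such markers 9 had named probes, and 9 of these 11 probes were members, 5 of them bright. The exceptions were a second Ryr2 probe, with a median of 5.9 on 12 arrays, and Myh6, at 6.54. Defining markers of endothelium, fibroblasts, smooth muscle, macrophages, lymphocytes, red cells, skeletal muscle, lung, fat, mesothelium and liver had 0 members among 34 probes. With 0.81% of all named probes being members, 0 among so few is near the share of all. The fibroblast markers Col3a1 and Dcn were bright, with medians of 14.14 and 14.08, and had values on 11 arrays. In pooled heart RNA, fewer cells of a type and less RNA per cell cannot be told apart.

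Enzymes of fatty acid use had 8 members among 43 probes (18.6%), all bright. Hadhb, the beta subunit of the mitochondrial trifunctional protein, read 14.73 on DMSO 24 h replicate 3 and 14.96 on DMA 24 h replicate 3, the only member higher on the latter. Ech1 read 13.88 and 13.28 on DMSO 24 h replicates 2 and 3, 13.09 on DMA 24 h replicate 3, 14.49 and 13.65 on DMA 48 h replicates 1 and 3 and 14.44 on DMSO 48 h replicate 3. Its DMA and DMSO values overlapped at 48 h and lay apart by little at 24 h. Etfa, part of the electron carrier that takes electrons from beta oxidation, read 14.74 and 11.69, and Fabp4, a fatty acid binding protein of fat cells and small vessels, 14.62 and 10.94, on replicate 3 of DMSO and DMA at 24 h. Fabp3 (13.73), Acadl (13.01), Acadvl (12.99) and Lpl (12.4) were seen on DMA 24 h replicate 3 alone. They encode the heart's fatty acid binding protein, acyl-CoA dehydrogenases of long chains and lipoprotein lipase.

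Sugar breakdown and the citrate cycle had 5 members among 48 probes (10.4%). Mdh2, mitochondrial malate dehydrogenase, read 14.79 on DMSO 24 h replicate 3, 13.36 on DMA 24 h replicate 3 and 14.73 on DMA 48 h replicate 3, and its cytosolic relative Mdh1 read 15.11 on DMA 24 h replicate 3 alone. Eno3, muscle enolase, read 14.74 and 13.67 on replicate 3 of DMSO and DMA at 24 h. Sucla2, a succinyl-CoA synthetase subunit, and Pgam2, muscle phosphoglycerate mutase, each had DMA 24 h replicate 3 (13.46 and 13.32) and 1 DMA 48 h array (14.71 and 14.77). Of carriers that move phosphate and ATP across the inner mitochondrial membrane, Slc25a3 read 14.7 and 13.67 on the 24 h replicate 3 pair and Slc25a4 read 14.89 on DMA 24 h replicate 3 alone.

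Genes with broader roles made up the rest of the bright members. Gsn, gelsolin, which severs actin filaments, read 14.68 on DMSO 24 h replicate 3, 10.27 on DMA 24 h replicate 3 and 14.72 on DMA 48 h replicate 3. Mgp, matrix Gla protein, an inhibitor of vessel calcification, read 14.56 and 14.58 on DMSO 24 h replicates 2 and 3, 11.83 on DMA 24 h replicate 3, 14.29 and 14.57 on DMA 48 h replicates 1 and 3 and 14.56 on DMSO 48 h replicate 3. At 48 h the single DMSO value of Mgp lay between its DMA values. Prdx2, a peroxiredoxin, read 14.49 on DMA 24 h replicate 1, 14.69 on DMSO 24 h replicate 3, 13.55 on DMA 24 h replicate 3 and 14.86 and 14.6 on DMA 48 h replicates 1 and 2. Ppia, cyclophilin A, read 14.75, 13.6 and 14.65 on DMSO 24 h replicate 3, DMA 24 h replicate 3 and DMA 48 h replicate 1. Tpt1 read 10.26 on DMA 24 h replicate 3 and 14.49 on DMA 48 h replicate 3. Tmsb4x read 14.73 on DMSO 24 h replicate 3 and 11.47 on DMA 24 h replicate 3. Tuba4a read 14.35 on DMA 24 h replicate 1, 13.39 on DMA 24 h replicate 3 and 14.81 on DMA 48 h replicate 2. Cst3 (13.64) and Fth1 (10.16) were seen on DMA 24 h replicate 3 alone. These genes, from Tpt1 to Fth1, are widely expressed genes of growth control, cytoskeleton, protease inhibition and iron storage.

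Of the bright members 102 belonged to one of the lists and 10 to none. Ifitm3, an interferon-induced membrane protein, was measured on DMA arrays only, at 15.01 on DMA 24 h replicate 3 and 14.44, 14.65 and 14.82 on the 3 DMA 48 h arrays. Romo1, a small protein of the inner mitochondrial membrane, read 14.65 on DMSO 24 h replicate 3, 13.56 on DMA 24 h replicate 3 and 14.45, 14.67 and 14.85 at DMA 48 h. Neither of these probes can be compared between DMA and DMSO at 48 h, since no DMSO 48 h array held a value. A further Romo1 probe with 12 values read 11.97, 12.08 and 12.4 after DMSO and 11.97, 12.13 and 11.74 after DMA at 48 h, a difference of -0.20 (SE 0.27, limma adjusted p = 1.00), and its groups overlapped. Some names were not ones known for high levels in heart: Scn11a, a sodium channel of sensory neurons, Sfswap, a splicing regulator, Spns2, a lipid transporter, Emc2, and the pseudogene Tmem181c-ps. The probe annotated as Scn11a read 14.51 and 14.57 on DMSO 24 h replicates 2 and 3, 14.43 and 12.47 on DMA 24 h replicates 2 and 3 and 14.59 on DMA 48 h replicate 1. Which transcript these probes capture was not tested. Igfbp7 and Nme2 complete the 10 with Aox4.

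**Figure D3:**
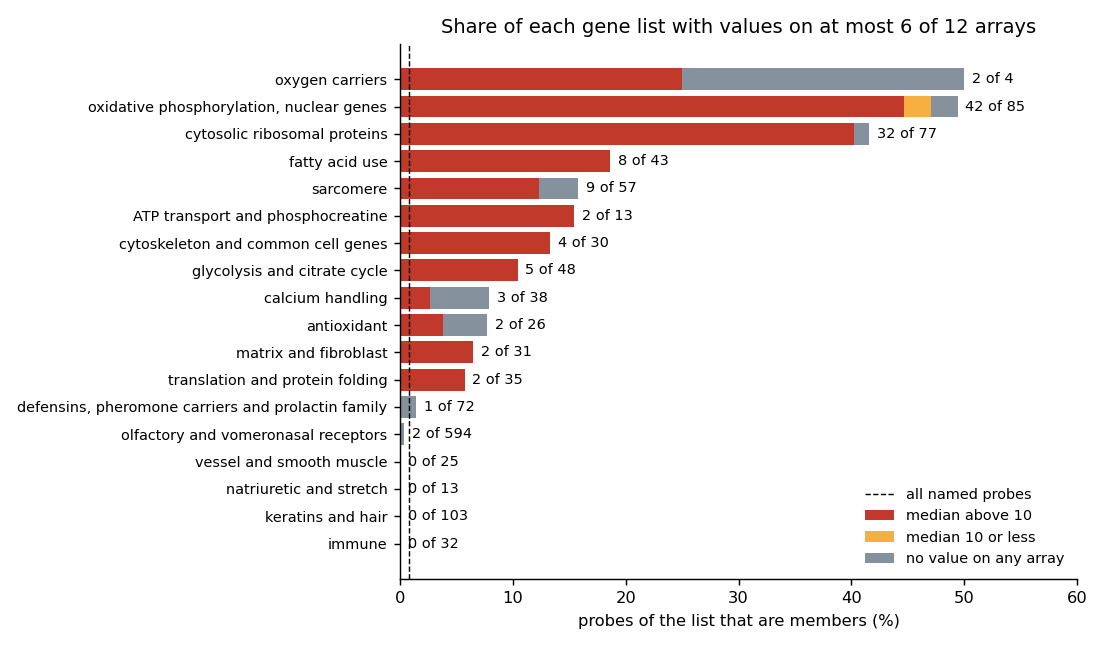
Share of the named probes of each gene list that are members (horizontal axis, %), coloured by class, with the counts beside each bar and a dashed line at the 0.81% of all named probes. Respiratory chain genes (42 of 85) and ribosomal proteins (32 of 77) have the longest bars among lists of over 10 probes, and the vessel, stretch, immune and keratin lists have 0.

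Lists without members included 25 probes of vessel and smooth muscle genes, 32 of immune genes, 13 of natriuretic and stretch genes and 103 of keratins. The 43 respiratory chain probes outside the members had medians of 3.94 to 14.49, and 19 of them lay above 13; the 45 ribosomal probes outside had 14 above 13. In all, 284 named probes on 7 or more arrays had a median above 13, and 91 of these lay above 14. Whether a high level made a probe a member was not tested. Since the lists were chosen with heart and housekeeping genes in view and results of these data known, their shares are a description.

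A few promoters are shown because ribosomal, respiratory and contractile genes make up most of the bright members; each is a window of 300 bases, most of them before a gene start, in RefSeq, assembly GRCm38.p6, 5′ to 3′ along the gene's strand, with a motif match in capitals. Atp5k lies at chr5:108434350-108434649 on the minus strand and Rpl27a at chr7:109518945-109519244 on the plus strand, both with CCGGAAG, a core of sites bound by the factor GABP, read on the opposite strand. Mybpc3 lies at chr2:91117894-91118193 on the plus strand, with the core motif of sites bound by the muscle factor MEF2.
Atp5k: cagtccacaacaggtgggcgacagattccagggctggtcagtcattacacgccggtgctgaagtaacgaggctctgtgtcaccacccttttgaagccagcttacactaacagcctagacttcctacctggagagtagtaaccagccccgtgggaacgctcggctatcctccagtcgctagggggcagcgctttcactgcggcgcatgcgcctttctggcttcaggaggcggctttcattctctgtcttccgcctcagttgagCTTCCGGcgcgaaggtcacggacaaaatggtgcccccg
Rpl27a: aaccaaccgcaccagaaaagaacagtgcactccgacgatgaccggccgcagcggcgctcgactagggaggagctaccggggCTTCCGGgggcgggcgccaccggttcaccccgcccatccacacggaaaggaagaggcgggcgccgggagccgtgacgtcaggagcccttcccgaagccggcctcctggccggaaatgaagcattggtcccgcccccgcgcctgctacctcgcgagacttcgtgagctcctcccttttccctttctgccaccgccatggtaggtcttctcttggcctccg
Mybpc3: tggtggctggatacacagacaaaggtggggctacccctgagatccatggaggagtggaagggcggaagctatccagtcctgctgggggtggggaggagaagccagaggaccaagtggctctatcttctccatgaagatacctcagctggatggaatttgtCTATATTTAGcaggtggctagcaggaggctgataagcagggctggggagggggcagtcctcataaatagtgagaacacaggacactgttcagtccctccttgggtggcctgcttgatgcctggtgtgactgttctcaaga

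Both strands were searched for 5 motifs, and the motif marked in each promoter was chosen after its share in that role had been seen. CCGGAAG was found for 10 of 23 bright ribosomal genes with a window (43.5%), 7 of 32 bright respiratory genes (21.9%), 0 of 7 bright sarcomere genes and 14.1% of 14335 named genes, and in 8.86% of all 32851 windows. The MEF2 core motif was found for 2 of 7 bright sarcomere genes (28.6%), 0 of 23 ribosomal genes and 4.07% of named genes, and in 3.69% of all windows. Over all bright members with a window, 93 of 111 genes, CCGGAAG was found in 23.7%. TATAAA, the core of the TATA box, was found for 14 of these 93 and for 12.7% of named genes, and AAGATGG, a core of YY1 sites, for 14% and 7.55%. The core motif of the factor NRF1 was found for 3 of 93 (3.23%) and for 1.66% of named genes. A match describes the letters only and does not show that a factor binds there.

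Only 2 members lay on the dim side of the limit of 10, both close to it. They were Atp5md (9.96) and Cox7a2 (9.82), an ATP synthase subunit and a cytochrome c oxidase subunit, each valued on DMA 24 h replicate 3 alone. Just above the limit were Fth1 (10.16), Cycs (10.28), Rps29 (10.63) and Atp5h (11.05), again on that array alone. On the other side of the array limit, 7 named probes had 7 values. The bright ones were Sdhb (median 14.47), a second Rpl4 probe (14.47), Rps18 (14.34) and the atrial light chain Myl7 (13.45), and the dim ones Vamp3 (7.11), Tbl2 (6.41) and 1600025M17Rik (6.26). Dim probes were more frequent among those with more values: of 20 named probes with 7 or 8 values 8 had a median of 10 or less, and of 6608 with 9 to 11 values 5540 did.

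Among dim probes gaps were rarer than among those above 14, though DMA 24 h replicate 3 had the lowest share and DMSO 24 h replicate 1 and DMSO 48 h replicate 1 the highest shares in both. Among named probes with 7 to 12 values and a median of 6 or less, 2.83% of values were absent, from 0.553% on DMA 24 h replicate 3 to 9.84% on DMSO 24 h replicate 1, with 6.22% on DMSO 48 h replicate 1. Up to a median of 14 the share over all arrays stayed between 2.83% and 4.06%. Above 14, where 91 such probes lay, it was 11.5%, from 0% on DMA 24 h replicate 3 and DMA 48 h replicate 3 to 24.2% on DMSO 24 h replicate 1 and 59.3% on DMSO 48 h replicate 1. DMSO 48 h replicate 1 and DMSO 24 h replicate 1, which held 0 and 1 members, thus also lacked the most of these outside probes, 54 and 22. The other 10 arrays lacked 0 to 12 of the 91, among them DMA 24 h replicates 1 and 2, which held 2 and 5 members and lacked 6 and 4. The reason for an absent value is not given in the sources used here, and brightness as a cause was not tested.

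**Figure D4:**
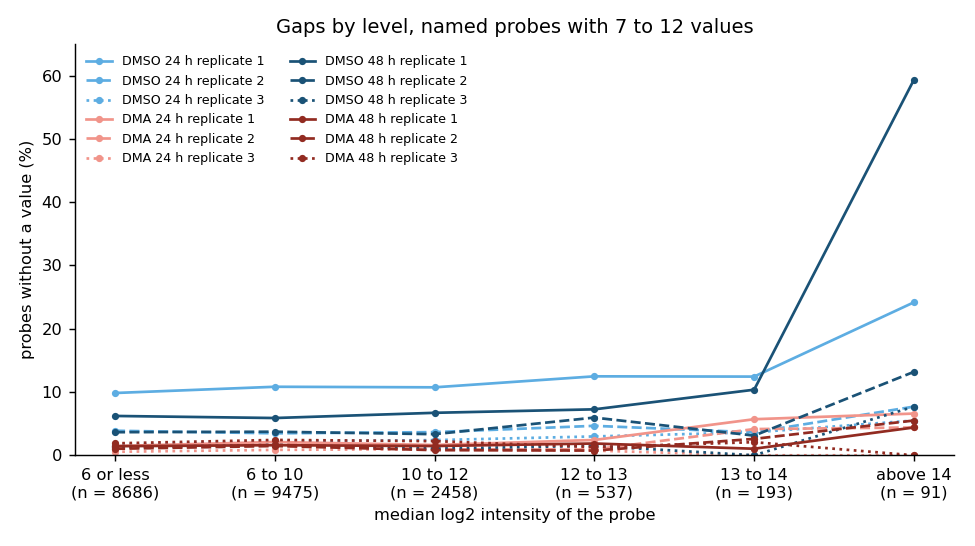
Percent of named probes without a value on each array (vertical axis) against the probe's median log2 intensity (horizontal axis, in 6 ranges with the number of probes), for probes with 7 to 12 values, which excludes the members. From the range of 13 to 14 to that above 14, DMSO 48 h replicate 1 goes from 10.4% to 59.3% and DMSO 24 h replicate 1 from 12.4% to 24.2%.

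Probes without a usable symbol showed the same arrays. Of 57 such probes on at most 6 arrays 26 had a value, 25 of these with a median above 10, and 24 of the 26 were valued on DMA 24 h replicate 3. DMA 48 h replicate 1 held 10 of them, DMA 48 h replicate 3 held 7, DMSO 24 h replicate 3 held 6 and DMSO 48 h replicates 1 and 2 held 0.

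The 61 probes with no value on any array were a mixed set. Of these, 12 belonged to a list: Actc1, Myl3, Atp2a2, Ryr2, Uqcrb, Uqcrh, Mb, Rpl41, the microsomal glutathione transferase Mgst3, the olfactory receptors Olfr267 and Olfr829, and Svs6, a seminal vesicle protein. Of the 112 bright members 102 belonged to one. Without any value were 2 of 57 sarcomere, 2 of 38 calcium handling and 2 of 85 respiratory chain probes. For fatty acid use it was 0 of 43, for olfactory and vomeronasal receptors 2 of 594. Over all named probes it was 61 of 21615. Among the 49 outside the lists were Chchd10, a mitochondrial protein, and Ptprb, a phosphatase of endothelium, but also genes of tissues other than heart: Tyr, the pigment enzyme tyrosinase, Rgr, an opsin of the eye, Tacr3, a neuropeptide receptor of the brain, Tekt2 and Dnah5 of cilia, and Dnmt3l, a germ cell gene. With no value, a level cannot be given to any of the 61 from these probes.

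Whether DMA changed the members could hardly be asked. A test on a probe needed at least 2 values in both groups of a time, which 2 members met at 24 h and 0 at 48 h. Rps4x, a ribosomal protein of the small subunit, read 14.3 and 13.81 on DMSO 24 h replicates 2 and 3 and 14.53 and 10.4 on DMA 24 h replicates 2 and 3. The DMA mean was 12.5 ± 2.92 (SD, n = 2) and the DMSO mean 14.1 ± 0.346 (SD, n = 2), a log2 difference of -1.59 (SE 1.41, limma adjusted p = 0.963). The groups of Rps4x overlapped, and within replicate 2 DMA was the higher. For the Scn11a probe the means were 13.4 ± 1.38 (SD, n = 2) and 14.5 ± 0.0418 (SD, n = 2), a difference of -1.09 (SE 0.81, limma adjusted p = 0.963), without overlap. Over 11 settings the adjusted p in limma ran from 0.852 to 0.990 for each. Without DMA 24 h replicate 3 both probes had 1 DMA value and did not meet the minimum, and the difference of Rps4x turned to 0.20 with array weights.

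Of the members 0 of 2 passed the limma test at 24 h, where 0 of 35547 probes (0%) passed and 503 (1.42%) had an unadjusted p under 0.05. Groups without overlap were seen in 1 of the 2, against 7.98% of all probes tested at 24 h. These shares are not alike, since both members had 2 values a group while 29542 of the 35547 probes had 3. With fewer values, groups overlap less often. At 48 h 0 of 35848 probes (0%) passed, with 785 (2.19%) at an unadjusted p under 0.05; groups did not overlap in 7.21% of these probes, and 0 members could be counted. With at least 1 value in each group 43 members could be fitted at 24 h and 7 at 48 h, and 0 passed. The calls stayed at 0 in all 15 alternatives at each time. Fits with 1 value a group borrow the spread of members with 1 value a group from all other probes.

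Where single arrays could be set side by side, DMA 24 h replicate 3 gave the lower value of nearly every member. It lay below DMSO 24 h replicate 3 in 41 of 42 members, with a median difference of -1.92 and a range of -5.75 to 0.23. Among named probes outside the members that read above 13 on DMSO 24 h replicate 3, it was lower in 135 of 199 (67.8%), with a median difference of -1.23. These sets were not matched for level: 36 of the 42 members read above 14 on DMSO 24 h replicate 3, whose highest value was 14.79. The outside probes were also picked by their level on that array alone, which by itself favours a lower value on DMA 24 h replicate 3. Ribosomal members showed a median of -3.41 over 11 probes (-5.75 to -0.85) and sarcomere members -3.65 over 3 (-3.69 to -3.48). Respiratory chain members showed -1.24 over 9 (-3.4 to -0.94), so the ranges of ribosomal and respiratory members overlapped. Rpl24 lay furthest apart, at 14.78 and 9.03. These are differences between 1 array and another and have no replicate check.

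**Figure D5:**
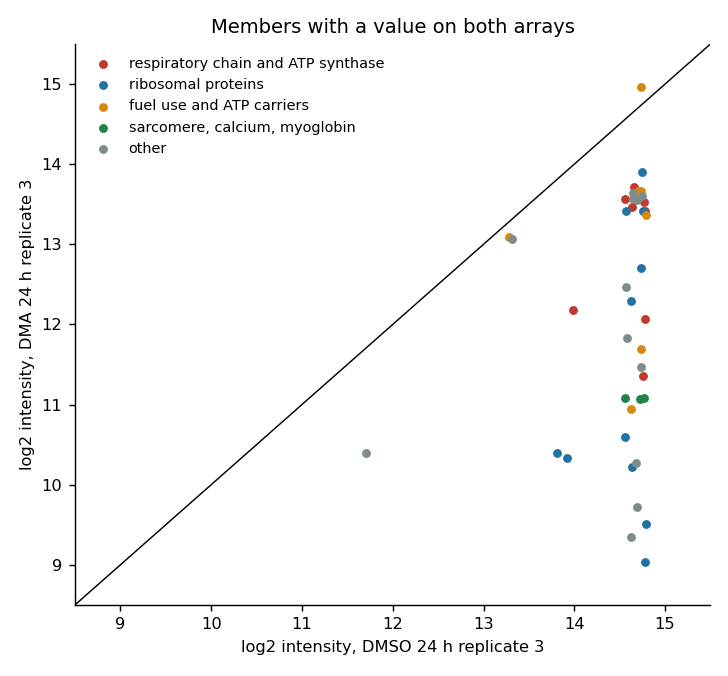
Log2 intensity of the 42 members with a value on both arrays, on DMSO 24 h replicate 3 (horizontal axis) and DMA 24 h replicate 3 (vertical axis), coloured by role, with the line of equal values. Of the points 41 lie below the line; 36 stand above 14 on the horizontal axis while they run from 9.03 to 14.96 on the vertical axis.

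At 48 h the values set side by side lie mostly above 14, close to the highest values of the arrays. Whether small differences there follow the amounts of the transcripts was not tested. DMA 48 h replicates 1 and 3 shared 17 members, with a median difference (replicate 1 minus replicate 3) of -0.03, and 1 of the 17 differed by more than 1. Among named probes outside the members above 13 on replicate 3, replicate 1 was lower in 316 of 402 (78.6%), with a median difference of -0.37. These outside probes were picked by their level on replicate 3 alone, which by itself favours a lower value on replicate 1. The members were not picked in that way, so the sets are not alike. Over the 20 members with at least 2 values in DMA 48 h, the range within the group had a median of 0.215 and was at most 1.03. In DMSO 24 h the 11 members with at least 2 values had ranges of 0.02 to 0.6, and in DMA 24 h the 7 such members had ranges of 0.87 to 5.02. One DMSO 48 h array, replicate 3, held members. DMA 48 h replicate 1 minus that array was -0.28 to 0.21 in the 6 members they shared, and DMA 48 h replicate 3 minus that array was -0.79 to 0.17 in 5 members, with a median of -0.42.

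Other probes of the same genes gave a way to test the genes, if not the member probes. Of the 171 genes 34 had a further named probe on 7 or more arrays, 41 probes in all, and 18 of the 34 genes were ones with a bright member. Of the 41 probes 16, of 13 genes, had a median above 10, and the rest lay lower. Among the lower ones were probes of genes with a bright member, such as Hadhb (5.11), Uqcrc2 (5.14) and Cycs (4.98). Bright thus describes a member probe and not its gene. At 24 h 40 of these probes were tested, 14 with a positive and 26 with a negative difference between DMA and DMSO, with a median of -0.24, against a median of 0.09 over all probes. At 48 h 39 were tested, 17 positive and 22 negative, with a median of -0.03 against 0.01. None of the 41 passed at either time in limma (adjusted p = 0.963 to 0.999 at 24 h and 1.00 at 48 h), and at an unadjusted p under 0.05 there were 0 at 24 h and 1 at 48 h, Sult2a2, a sulfotransferase. Without DMA 24 h replicate 3 the median at 24 h was -0.07, with 19 positive and 22 negative differences.

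Among the 8 genes whose further probe had the highest median, differences of several turned on that array. A gene is given by that probe unless another is named. The second Rpl27a probe read 14.12, 14.06 and 13.37 on the DMSO 24 h arrays and 14.09, 13.91 and 7.13 on the DMA 24 h arrays, a difference of -2.14 (SE 1.77, limma adjusted p = 0.963), which was 0.15 without DMA 24 h replicate 3. At 48 h it read 13.92, 13.98 and 14.21 after DMSO and 13.24, 13.84 and 14.17 after DMA. The groups overlapped at both times. A further Rpl7 probe differed by -1.21 (SE 1.30) at 24 h and by 0.42 without the array. Another Rpl7 probe differed by -2.01 (SE 1.53) and stayed negative without the array, at -0.41. The second Ppia probe differed by -2.48 (SE 2.22) and by -0.08 without the array. Ptprb, the phosphatase that opposes signalling of the angiopoietin receptor, had a probe without any value and another that read 13.04, 12.98 and 12.88 after DMSO and 12.89, 12.51 and 7.12 after DMA at 24 h, a difference of -2.13 (SE 1.45) and of -0.26 without the array. A further Ptprb probe went the other way, at 12.11 on DMA 24 h replicate 3, above every other 24 h array with a value. Its difference was -0.22 (SE 0.55) and -0.84 without the array. Yet another Ptprb probe was dim, with a median of 3.76.

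Mgst3 was the gene with no value on its member probe whose further probe had the highest median. That probe read 14.23, 13.3 and 13.21 on the DMSO 24 h arrays and 14.15, 14.1 and 13.63 on the DMA 24 h arrays, a difference of 0.38 (SE 0.459, limma adjusted p = 0.963). Rpl5 differed by 0.38 (SE 0.52) and Rpl4 by -1.17 (SE 1.31) at 24 h, with Rpl4 valued on 2 arrays a group and at 0.70 without DMA 24 h replicate 3. Mrpl17, of the mitochondrial ribosome, had 1 DMSO value at 24 h and was not tested there. DMA 24 h replicate 3 was below all other 24 h arrays in 18 of the 41 further probes and above them in 11, against 31% and 41.9% of all named probes on 7 or more arrays.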

How the data were processed

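RNA of Balb/c hearts was hybridised to 12 1-colour arrays. The authors deposited log2 values, with absent values for some probes; how they were scaled, and why values are absent, is not given in the sources used here. Probes were named through the platform annotation. The members and gene lists were chosen with earlier results of these data known, and genes named beyond the naming rule (the highest or most often valued of each list) were chosen after their values were seen. Absent values were left absent.

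DMA and DMSO were compared within a time with limma 3.58.1 (R 4.3.3) on the deposited log2 values, using probes with at least 2 values in each group, and p-values were adjusted by Benjamini-Hochberg across every probe tested, with calls at 0.05. Arrays of the other time entered a fit in 1 alternative only. Figures and counts were made with Python 3.11.15. Arrays number 3 a group, which limits the precision.

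The fit was tested on simulated data. The changes first simulated, of 1 to 4 on the log2 scale, were recovered in no case at 24 h, although their mean estimates were near the simulated sizes. At 48 h changes of 1, 2, 3 and 4 were recovered in 0%, 16%, 38% and 74%, with 9 false calls. Changes of 2 to 8 were then simulated. In that run a change of 2 was recovered in 0% at 24 h and 36% at 48 h. A change of 4 was recovered in 50% and 60%, with 6 and 12 false calls in the run. A count of 0 calls therefore says little about log2 changes up to 4 at 24 h, and little about changes of 1 to 3 at 48 h.

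Arrays of the same replicate number deviated together (correlation 0.114 to 0.189 at 24 h and 0.279 to 0.337 at 48 h), against -0.102 to -0.012 and -0.210 to -0.088 for different numbers. The pairing comes from the data, as the labels do not explain the numbers, and a fit with the number as a block is among the alternatives.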

Additional observations from a re-analysis of the deposited data

How the results depend on the processing

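The number of members was 162 to 182 under array limits of 4 to 7. With an array left out and the limit lowered to 5 of the remaining 11 arrays it was 169 to 175, so these counts mix both changes. It was 232 with unnamed probes and 137 when counting genes with every probe on at most 6 arrays. Bright members numbered 93 to 137 under the other definitions and 72 to 112 with an array left out, at the same limit of 5 of 11. The lowest, 72, came without DMA 24 h replicate 3; an alternative added after seeing the data, the same members with that array ignored, also gave 72. The test gave 0 calls at both times in every alternative, with 74 to 3389 probes at an unadjusted p under 0.05 at 24 h and 60 to 1500 at 48 h. With the replicate block it gave 0 calls, with 562 and 1500 such probes, and the pairing changed no call. The block moved the Ppia difference at 24 h from -2.48 to -0.08, because it leaves out the pair without a DMSO value.

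Signs of single differences turned as follows, and none had passed the test. Each is of 1 probe: the member probe for Rps4x and the further probe with the highest median for the other genes. With array weights at 24 h Rps4x was 0.20, Rpl27a 0.23, Rpl4 0.50 and Rpl7 0.53. With an array left out Rpl27a ran from -3.33 to 0.15 and Rpl7 from -2.04 to 0.42, the upper ends without DMA 24 h replicate 3. Rpl4 (-1.17) was 0.70 without that array, with 1 DMA value and no test. At 48 h Rpl5 (-0.01) was 0.0056 with arrays centred and 0.013 with array weights, and ran from -0.14 to 0.12 with an array left out, above 0 without DMA replicate 1 or DMSO replicate 2. Ppia (-0.03) ran from -0.20 to 0.15, above 0 without DMSO replicate 1, DMA replicate 1 or DMA replicate 2. Mrpl17 (-0.04) ran from -0.27 to 0.16 and Ptprb (-0.06) from -0.24 to 0.14, both above 0 without DMA replicate 1 or DMSO replicate 2. The cause was not tested. A probe without a value has no level here, which limits every statement on the 61 probes absent from all arrays.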
